A study of Mus musculus with 16 samples.

Results

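Sdc4, Sema6d, Phlda1 and Litaf are 4 genes that stood high in tumor-specific memory T cells of the skin, and they were chosen for that from the same data, as 4 of the 9223 genes listed in the deposited table. Their pooled level and the share of cells with a count were taken in each of the 4 tissues, and their co-detection and their relation to Nr4a1, an immediate early gene, were taken within skin cells. The study sequenced single Pmel T cells, which are CD8+Thy1.1+ and carry a transgenic receptor that recognises gp100, an antigen of melanoma. They came from the skin, lung, liver and draining lymph node of C57BL/6 mice aged 16 weeks 45 days after tumor surgery, all with melanoma-associated vitiligo, in which the immune system destroys melanocytes. All groups share the strain, the vitiligo and the surgery, and no mice without them are used here. The 4 samples of each tissue have titles that end in L001 to L004, as sequencing lanes often do, so they may be lanes of 1 library. The titles carry no mouse number. The cell names carry a tissue prefix, which holds D45 for lymph node only, and no sample number. Each tissue thus counts as 1 library and no difference was tested.

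Syndecan-4, encoded by Sdc4, is a cell surface proteoglycan whose heparan sulfate chains bind growth factors and matrix, and it acts beside integrins at sites of adhesion. Sema6d encodes a transmembrane semaphorin that signals through plexin-A1 and is known on activated T cells. Phlda1, first described as a gene induced by T cell receptor stimulation in T cell hybridomas, encodes a protein with a pleckstrin homology-like domain. Litaf encodes a small membrane-anchored protein of late endosomes and lysosomes that binds the ubiquitin ligase Nedd4 and the sorting protein Tsg101. Memory T cells that stay in the skin are retained there by adhesion molecules and by loss of the receptors for tissue exit, and Nr4a1 is commonly used as a readout of recent receptor signaling.

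The deposited cells numbered 1224 (skin), 2322 (lung), 556 (liver) and 1625 (lymph node). In that order the libraries totalled 3292210, 8072278, 1928185 and 4532333 counts, and the median per cell ran between 2517.5 for skin and 3095.5 for liver. Every cell at equal depth had a count of at least 1 of 10 T cell genes, among them Cd3e, Cd8a and Thy1. Of 12 keratinocyte genes Krt10, Sfn and Perp were analysed, while the listed melanocyte, fibroblast and hepatocyte genes were not analysed here. The libraries also split by their summed level of pseudogenes, and the cause of this was not tested. The 14 listed pseudogenes with names ending in -ps summed to 7766 counts per 1000000 (CPM) in skin cells and 7074 CPM in lymph node cells, and to no more than 2149 CPM in lung or liver cells. Cell names follow the same split, with an unexplained 2 after skin and lymph node only. There were 19 cell barcodes found in more than 1 tissue.

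In GRCm38 (mm10), Sdc4 lies on chromosome 2 from 164424247 to 164443887 on the minus strand, and Sema6d lies on the same chromosome from 124089969 to 124667770 on the plus strand. Phlda1 spans 2.36 kb on chromosome 10, from 111506286 to 111508645 on the plus strand, and Litaf lies on chromosome 16 from 10959275 to 11066157 on the minus strand. All 4 are protein-coding, and none overlaps another gene of the table. The 250 bases before a RefSeq start (build GRCm38.p6) are shown 5′ to 3′ for the 3 members in RefSeq's promoter table, since these stretches hold the letters that could be compared among genes high in the same tissue. Sema6d has a pair of starts there, and the upstream start is shown. The Sdc4 stretch is chr2:164443189-164443438 on the minus strand, the Sema6d stretch chr2:124089719-124089968 on the plus strand and the Litaf stretch chr16:10993122-10993371 on the minus strand. The Sdc4 and Litaf stretches lie inside the gene spans given above, so they do not precede the outermost starts of those spans. Capitals mark the kappa B consensus of NF-kB factors and TATAA, on either strand.
Sdc4: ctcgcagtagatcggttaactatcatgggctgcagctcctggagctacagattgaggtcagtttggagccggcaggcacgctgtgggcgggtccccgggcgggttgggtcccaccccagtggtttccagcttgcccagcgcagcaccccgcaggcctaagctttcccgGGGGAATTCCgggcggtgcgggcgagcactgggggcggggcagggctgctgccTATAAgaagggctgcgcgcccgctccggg
Sema6d: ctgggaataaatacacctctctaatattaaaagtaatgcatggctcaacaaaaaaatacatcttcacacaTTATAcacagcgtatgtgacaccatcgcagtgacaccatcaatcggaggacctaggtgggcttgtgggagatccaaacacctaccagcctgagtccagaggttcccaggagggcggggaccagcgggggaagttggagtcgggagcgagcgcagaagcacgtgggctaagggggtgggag
Litaf: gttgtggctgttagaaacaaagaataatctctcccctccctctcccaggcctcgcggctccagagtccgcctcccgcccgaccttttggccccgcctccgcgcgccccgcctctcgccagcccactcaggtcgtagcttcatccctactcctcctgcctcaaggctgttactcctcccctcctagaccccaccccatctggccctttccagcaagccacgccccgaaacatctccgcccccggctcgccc

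The Sdc4 stretch holds a kappa B consensus 82 to 73 bases before the start and TATAA 29 to 25 bases before it. Over all 32851 RefSeq promoter stretches of the same length, 3.90% hold the kappa B consensus and 22.8% hold TATAA. The Sema6d stretch holds TATAA on the other strand, 180 to 176 bases before its start, and the Litaf stretch holds neither. The search also covered TGANTCA of AP-1, TGACGTCA of CREB and ATF factors, AAAGGTCA of NR4A receptors and the CArG box of SRF, on both strands. They are in 6.75%, 1.55%, 1.34% and 1.47% of all stretches, and none was in the stretches of Sdc4, Sema6d (both starts) or Litaf. GGGCGG, the letters of a GC box, is in 32.7% of all stretches and in those of Sdc4 (at 4 positions), Sema6d (1, upstream start) and Litaf (2). GGAAA, the core letters of NFAT sites, is in 55.6% of all stretches and was found in Sdc4, in Litaf and before the downstream start of Sema6d. In Sdc4 the kappa B match ends at the base before a GGGCGG match, and the 2 do not overlap. A match of letters is a description and not a binding site.

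Sdc4, the surface proteoglycan gene, had few counts outside skin. It stood at 120 CPM in skin (exact 95% Poisson interval 109 to 133, from 396 counts), against 1.73 in lung (0.948 to 2.91, 14 counts), 1.04 CPM in liver (0.126 to 3.75, 2 counts) and 11.3 in lymph node (8.38 to 14.8, 51 counts). Intervals here and below are at 95% and cover only counting error and leave out how mice or libraries vary. Skin was highest, lymph node next, and lung and liver did not differ beyond counting error, with a ratio of 1.67 (0.384 to 15.2). In skin 200 cells held 1 count, 53 held 2, 14 held 3 and 10 held 4 or more, with 7 as the highest, while all 14 lung cells with Sdc4 held a single count.

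Sema6d, the semaphorin gene, had the same order of tissues at the top. It stood at 82.6 CPM in skin (73.1 to 93.0, 272 counts), against 1.24 in lung (0.594 to 2.28, 10 counts), 2.07 in liver (0.565 to 5.31, 4 counts) and 12.8 in lymph node (9.72 to 16.5, 58 counts). Liver and lung did not differ beyond counting error, with a liver level 1.67 times that of lung (0.383 to 5.81). Of the 224 skin cells with Sema6d, 182 held a single count and 6 held 3, the highest number in any cell, so its skin level was spread over many cells with few counts each.

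Phlda1, the receptor-induced gene, was the member for which lymph node was lowest. Its level was 329 CPM in skin (310 to 349, 1084 counts), against 41.5 in lung (37.2 to 46.2, 335 counts), 74.7 in liver (63.0 to 87.9, 144 counts) and 18.5 in lymph node (14.8 to 22.9, 84 counts). All neighbours in this order differed beyond counting error, the closest being liver over lung at 1.80 (1.47 to 2.19). The skin counts were uneven, with 258 cells at 1 count, 146 at 2, 50 at 3 and 70 at 4 or more, up to 12. In lymph node a single cell held 6 of the 84 counts.

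Litaf, the endosomal gene, was lowest in lung. It stood at 429 CPM in skin (407 to 452, 1411 counts), against 57.9 in lung (52.7 to 63.3, 467 counts), 79.9 in liver (67.8 to 93.5, 154 counts) and 101 in lymph node (91.6 to 110, 456 counts). The closest neighbours in the order were lymph node and liver, with a ratio of 1.26 (1.05 to 1.52). That last difference depended on scaling. With size factors from median ratios in place of total counts, liver over lymph node was 0.97 with an interval of 0.802 to 1.17 that held equality.

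**Figure D1:**
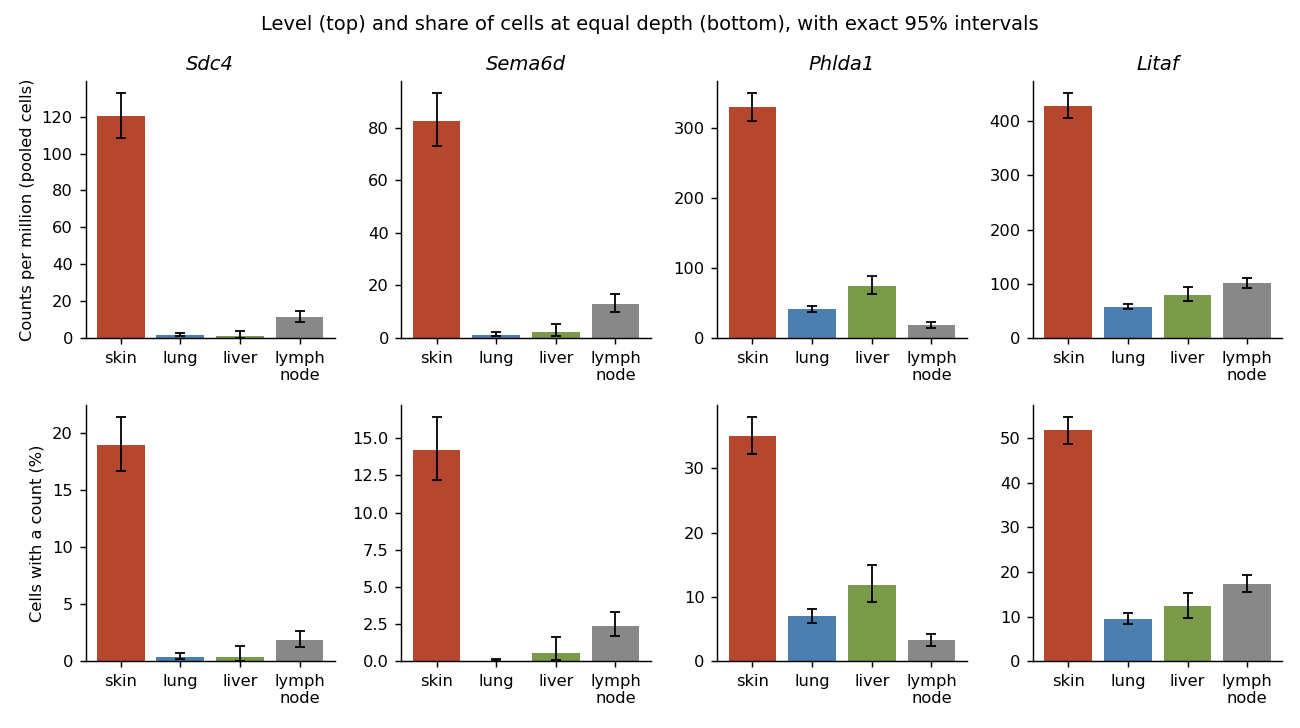
Bars give the pooled level in CPM (top) and the percent of cells with at least 1 count after thinning every cell to 1886 counts (bottom) in skin, lung, liver and lymph node, 1 library each, with error bars as exact 95% intervals for counting error. Skin stands highest in all 8 panels, and the order of the other tissues differs between Phlda1 (lymph node lowest) and the other genes.

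Since the genes were picked as high in skin, the ratios of skin to the other tissues describe the choice. Skin over lymph node was 10.7 for Sdc4 (7.97 to 14.6), 6.46 for Sema6d (4.85 to 8.73), 17.8 for Phlda1 (14.2 to 22.5) and 4.26 for Litaf (3.83 to 4.74). All 4 were thus at least 2-fold higher, as were 5.59% of the 8961 genes that had 20 or more counts over both tissues, and nothing is read from the count. Genes at least 2-fold higher made up 35.1% of all genes at least 2-fold apart in either direction, and 47.7% with size factors. Skin over lung was 69.4 for Sdc4 (40.8 to 128), 66.7 for Sema6d (35.7 to 141), 7.93 for Phlda1 (7.01 to 8.995) and 7.41 for Litaf (6.67 to 8.24), beside 15.7% of genes at least 2-fold higher. Skin over liver was 116 for Sdc4 (31.9 to 961), 39.8 for Sema6d (15.4 to 147), 4.41 for Phlda1 (3.70 to 5.28) and 5.37 for Litaf (4.54 to 6.38), beside 16.4% of genes. The 2 counts of Sdc4 and 4 of Sema6d in liver leave those ratios wide. Skin over liver for Sdc4 was 227 without doublets, and skin over lung for Sema6d was 40.9 as a mean over cells.

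The comparisons without skin differed in direction between members. Lung over lymph node was 0.154 for Sdc4 (0.0788 to 0.283), 0.0968 for Sema6d (0.0441 to 0.191) and 0.575 for Litaf (0.504 to 0.656), against 2.24 for Phlda1 (1.76 to 2.88). Liver over lymph node was 0.0922 for Sdc4 (0.0109 to 0.350) and 0.162 for Sema6d (0.0427 to 0.438), against 4.03 for Phlda1 (3.06 to 5.34). Phlda1 was thus at least 2-fold higher than in lymph node in both organs, as were 3.58% of genes for lung and 3.92% for liver. Sdc4 and Sema6d were at least 2-fold lower in both by these ratios, as were 18.3% of genes for lung and 22.0% for liver. They had 2 to 14 counts in lung and liver. Their shares of cells in all 3 tissues, given next, are not shown to be above background. Whether the ratios reflect background was not tested. These comparisons, like those of skin with lung and liver, run across the split of the libraries given above, and its part in them was not tested.

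The share of cells with a count was computed at an equal depth of 1886 counts per cell, reached by random thinning, which left 1083 skin, 2049 lung, 529 liver and 1494 lymph node cells and left out 141, 273, 27 and 131. Sdc4 was detected in 18.9% of skin cells (16.6 to 21.4), against 0.390% of lung, 0.378% of liver and 1.87% of lymph node cells (1.25 to 2.70). Sema6d was detected in 14.2% of skin cells (12.2 to 16.4), against 0 of 2049 lung cells, which at this depth allows a share of cells with a count, not of cells expressing the gene, of up to 0.146%, 0.567% in liver and 2.41% in lymph node (1.69 to 3.32). Without thinning these shares were 22.6% of skin cells for Sdc4 against 0.603%, 0.360% and 2.77% in lung, liver and lymph node, and 18.3% for Sema6d against 0.388%, 0.719% and 3.2%. Genes of other cell types were counted in the same cells, which can reflect free RNA or expression in the T cells. The B cell gene Igkc was found in 0 of 1083 skin cells, 1.66% of lung cells, 0 of 529 liver cells and 1.67% of lymph node cells (1.09 to 2.46). The antigen presentation gene Cd74, of the myeloid list, was found in 17.8% of skin cells (15.6 to 20.2), 6.39% of lung (5.37 to 7.54), 8.88% of liver (6.60 to 11.6) and 20.3% of lymph node cells (18.3 to 22.4), the highest of the listed genes of other cells in each tissue. The keratinocyte gene Sfn was found in 7.39% of skin cells (5.90 to 9.11). In skin the intervals of both Sdc4 and Sema6d thus lie above that of Sfn and overlap that of Cd74. At least 1 gene of the myeloid list was found in 23.2% of skin cells, and at least 1 of the keratinocyte list in 13.4%. In skin these shares alone thus do not tell Sdc4 and Sema6d apart from background as high as the Cd74 share. Outside skin the shares of Sdc4 and Sema6d lie below that of Cd74, and those in lymph node have intervals that overlap that of Igkc, so neither is shown to be above background there.

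Phlda1 was detected in 35.1% of skin cells (32.2 to 38.0), against 6.98% in lung (5.91 to 8.17), 11.9% in liver (9.27 to 14.98) and 3.28% in lymph node (2.44 to 4.31). Litaf was detected in 51.7% of skin cells (48.7 to 54.7), against 9.52% in lung (8.28 to 10.9), 12.3% in liver (9.61 to 15.4) and 17.3% in lymph node (15.4 to 19.4). The unthinned shares were 42.8% against 11.7%, 19.4% and 4.37% for Phlda1 and 60.3% against 16.9%, 22.5% and 23.4% for Litaf. In skin both intervals lie above that of Cd74. In lung that of Litaf does and that of Phlda1 does not, in liver both overlap it, and in lymph node both shares are below the 20.3% of Cd74. At least 1 of the 10 myeloid genes was found in 18.8% of lung, 16.4% of liver and 27.4% of lymph node cells. The lymph node intervals of Phlda1 and Igkc also overlap. Phlda1 in lung and liver, and Litaf in lung, liver and lymph node, had shares above that of Igkc. Outside skin, background as high as the Cd74 share is thus not told apart from expression for Phlda1, nor for Litaf in liver and lymph node, by these shares.

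Cells with several members were most common in skin, as the levels that chose the genes imply. At equal depth 34.5% of skin cells had counts of at least 2 of the 4 genes (31.7 to 37.5), against 0.927% in lung (0.559 to 1.44), 0.756% in liver (0.206 to 1.92) and 1.47% in lymph node (0.925 to 2.22). At least 3 were found in 81 of 1083 skin cells and in 0 cells of the other tissues, and 6 skin cells had all 4. Within skin the genes were spread over cells much as their separate shares give. None of the 4 was found in 245 skin cells, where independent detection would give 236, exactly 1 in 464 against 475 expected, 2 in 293 against 298, 3 in 75 against 69.3 and all 4 in 6 against 5.29.

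Sdc4 and Litaf were found together in 119 skin cells against 106 expected from their shares, a ratio of 1.12 (0.930 to 1.34), the highest of the 6. Sdc4 and Sema6d were together in 32 cells against 29.2 expected (1.10, 0.751 to 1.55), Phlda1 and Litaf in 201 against 196 (1.02, 0.886 to 1.17), and Sdc4 and Phlda1 in 72 against 71.9 (1.00098, 0.783 to 1.26). Sema6d and Litaf were together in 78 against 79.6 (0.980, 0.774 to 1.22) and Sema6d and Phlda1 in 52 against 54.0 (0.962, 0.719 to 1.26). Every interval held 1. Pearson correlations of log2(1 + count) over the 1083 cells, which share a library and a depth, lay between -0.0140 for Sema6d with Phlda1 and 0.0526 for Sdc4 with Phlda1. The middle 90% of the 714610 pairs among 1196 genes detected about as often ran from -0.0501 to 0.0542.

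**Figure D2:**
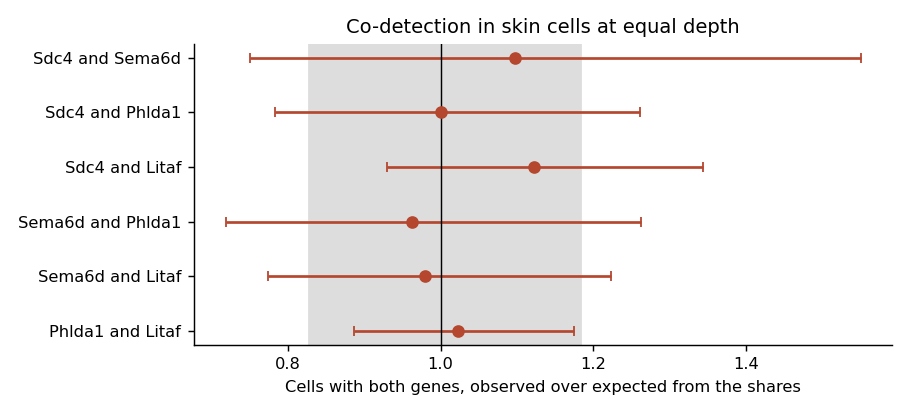
Points give, for each pair of members, the number of skin cells with both genes divided by the number expected from the separate shares, at equal depth in 1083 cells, with bars as exact 95% Poisson intervals. The vertical line marks 1 and the grey band, 0.827 to 1.18, holds the middle 90% of pairs among genes detected about as often; all 6 bars cross the line.

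Nr4a1 was itself far more common in skin, in 83.3% of cells at equal depth against 4.20% of lung, 19.3% of liver and 1.87% of lymph node cells, and most skin cells with a member also had Nr4a1. Among skin cells, Phlda1 was higher in each bin with more Nr4a1 counts, with intervals that overlap between neighbouring bins but not between the lowest and the highest. Its level was 202 CPM in the 181 cells with 0 Nr4a1 counts (157 to 256), 291 in the 213 cells with 1 (241 to 349), 363 in the 367 cells with 2 to 3 (319 to 410) and 408 in the 322 cells with 4 or more (359 to 462). Its share of cells followed, at 26.0%, 32.4%, 36.0% and 41.0%. The level in cells with Nr4a1 was 1.79 times that in cells without (1.40 to 2.33).

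Litaf was lowest in cells with 1 Nr4a1 count, and the intervals of its level there and in cells with 4 or more did not overlap. By share of cells, Litaf was at 45.5% (38.7 to 52.5) and 56.2% (50.6 to 61.7) in these bins, with overlapping intervals. It stood at 460 CPM with 0 counts of Nr4a1 (391 to 538), 353 with 1 (298 to 417), 446 with 2 to 3 (398 to 499) and 484 with 4 or more (430 to 543), and at 0.952 times the level of cells without Nr4a1 in cells with it (0.801 to 1.14). Sdc4 stood at 146, 105, 129 and 138 CPM in the same order of Nr4a1 counts, a ratio of cells with to cells without of 0.863 (0.632 to 1.20). Sema6d stood at 103, 77.2, 85.2 and 82.3 CPM, a ratio of 0.803 (0.551 to 1.20). The intervals of these ratios leave room for differences of up to 1.20-fold upward and down to 0.551-fold, so equal levels are not shown. Median unthinned counts per cell were alike over the bins, from 2538 to 2655.5.

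**Figure D3:**
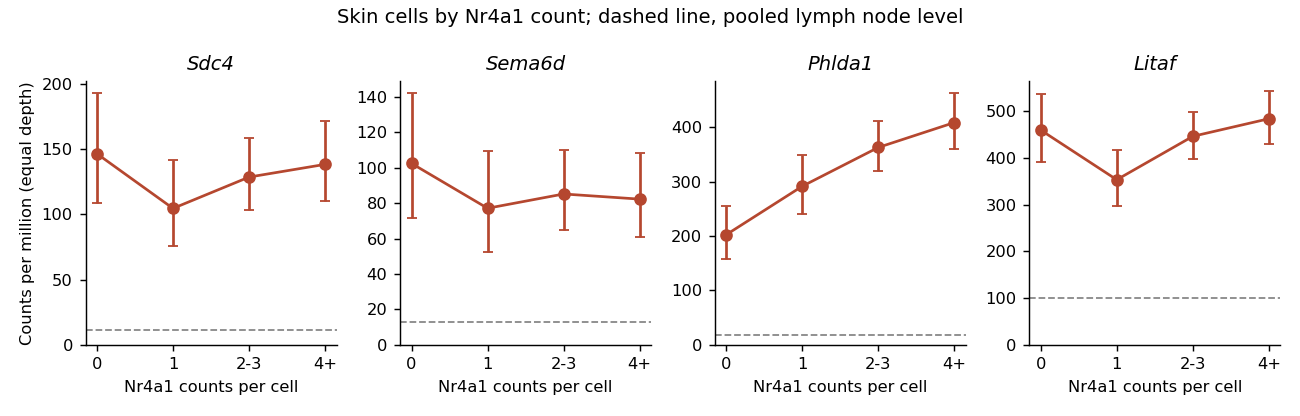
Points give the level of each gene in CPM at equal depth in skin cells with 0, 1, 2 to 3 and 4 or more Nr4a1 counts, with exact 95% Poisson intervals, and the dashed line gives the pooled lymph node level. Phlda1 stands at 202 in cells without Nr4a1 and 408 in those with 4 or more, while the intervals of Sdc4 and Sema6d overlap over all bins.

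The skin levels were also high in the 181 skin cells without an Nr4a1 count. These cells are part of those by which the genes were chosen, so their ratios to lymph node describe that choice. Set against all lymph node cells at equal depth, these cells were 14.7-fold higher for Sdc4 (9.10 to 24.3), 7.41-fold for Sema6d (4.56 to 12.0), 10.2-fold for Phlda1 (7.05 to 14.7) and 4.50-fold for Litaf (3.68 to 5.48). The corresponding ratios of skin cells with Nr4a1 to lymph node cells were 12.7, 5.95, 18.2 and 4.28. A cell with 0 of 1886 counts may still hold the transcript, so these cells are not shown to lack Nr4a1.

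Over skin cells, Pearson's r with Nr4a1 was 0.133 for Phlda1, 0.0406 for Litaf, -0.00466 for Sdc4 and -0.0290 for Sema6d. Among 2168 other genes with a count in at least 10% of these cells, these values ranked 20, 232, 1057 and 1616, beside a median of -0.00592 over all genes and a highest value of 0.313, for Gadd45b. All are weak correlations in sparse counts. Outside skin few cells had Nr4a1, and the shares were less precise. In liver Phlda1 was found in 18.6% of the 102 cells with Nr4a1 (11.6 to 27.6) and 10.3% of the 427 without (7.59 to 13.6), and Litaf in 15.7% (9.24 to 24.2) and 11.5% (8.61 to 14.9). In lung Phlda1 was found in 10.5% of 86 cells with Nr4a1 (4.90 to 18.9) and 6.83% of 1963 without (5.75 to 8.03). These intervals overlap.

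**Figure D4:**
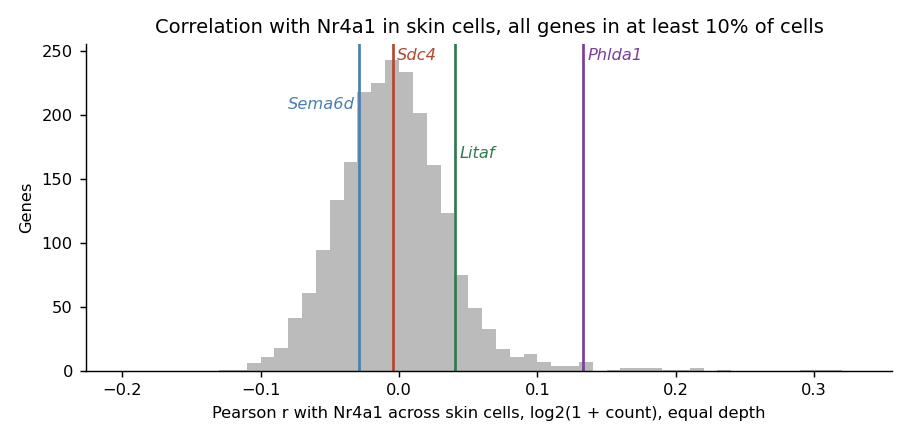
The histogram counts genes by their Pearson r with Nr4a1 across 1083 skin cells at equal depth, on log2(1 + count), for genes with a count in at least 10% of the cells. Lines mark the members: Phlda1 at 0.133 lies in the upper tail, Litaf at 0.0406 below the 95th percentile of 0.0611, and Sdc4 and Sema6d near the middle.

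Each member was also set against 25 other genes of activation, residency and effector function in skin cells, 100 pairs in all. In 8 pairs the interval of the member's share in cells with the other gene did not overlap that in cells without it, 5 of them for Phlda1, 3 for Litaf and 0 for Sdc4 and Sema6d. The same count was not taken for other genes, so nothing is read from these numbers. The 8 pairs are named below because they were picked this way, and some of their intervals nearly touch. Sdc4 and Sema6d were found in 205 and 154 skin cells, against 380 and 560 for Phlda1 and Litaf, which leaves fewer cells to tell their shares apart. Besides Nr4a1, Phlda1 was more often found in cells with Gadd45b, a stress and growth arrest gene (38.2% against 27.1%). The same held for Cd69, an activation and retention marker (39.2% against 29.6%). With Tgif1, a repressor of TGF-beta targets, Phlda1 was at 42.0% (36.5 to 47.6) against 32.1% (28.8 to 35.6). With Klf2, a transcription factor of circulating T cells, it was at 44.4% (37.1 to 52.0) against 33.2% (30.2 to 36.4). Litaf was more often found in cells with Pdcd1, the gene of PD-1 (59.7%, 53.7 to 65.5) than in cells without it (48.9%, 45.4 to 52.5), and with Rgs1, a regulator of G protein signaling (55.4% against 46.0%). It was less often found in cells with Fos, an immediate early gene (47.9%, 44.0 to 51.9), than in cells without (57.0%, 52.3 to 61.6). For Itgae, the gene of the residency integrin chain CD103, the shares in cells with and without it were 19.2% and 18.5% for Sdc4, 14.96% and 13.0% for Sema6d, 35.9% and 33.7% for Phlda1 and 52.5% and 50.4% for Litaf, all with overlapping intervals.

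Among cells with an Itgae count, the ratios of skin to lymph node use part of the counts by which the genes were chosen, so they too describe the choice. In the 682 such skin cells, Sdc4 stood at 128 CPM against 12.2 in the 737 such lymph node cells, a ratio of 10.5 (6.35 to 18.4), and Sema6d at 89.4 against 15.1, a ratio of 5.92 (3.69 to 9.92). Phlda1 stood at 348 CPM against 20.1 (17.3, 11.8 to 26.3) and Litaf at 442 against 107 (4.12, 3.43 to 4.97).

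Clustering the skin cells without the 4 members gave 5 clusters, which are given by number and leading genes, as a description, since clusters were formed on the other genes of the same cells. Cluster 0 (379 cells) was led by Vps37b, Gramd3 and Ifrd1, cluster 1 (404 cells) by Cd7, Cx3cr1 and Twistnb, cluster 2 (94 cells) by Ccl1, Plac8 and Ccl3, cluster 3 (298 cells) by Tnf, Fosb and Fos, and cluster 4 (49 cells) by the cycling genes 2810417H13Rik, Ube2c and Birc5. All 4 members were present in every cluster. Sdc4 was lowest in the chemokine-rich cluster 2, at 27.3 CPM (12.5 to 51.9), against 151 in cluster 0, 112 in cluster 1, 140 in cluster 3 and 91.7 in cluster 4 (58.2 to 138). The cluster 2 level rests on 9 counts. Its share at equal depth was 7.78% of cluster 2 cells (3.18 to 15.4), against 20.2% in cluster 0 and 21.7% in cluster 3. In cluster 1 the share was 18.8% (14.7 to 23.4) and in cluster 4 it was 16.7% (7.48 to 30.2). Both of these intervals overlap that of cluster 2. Of 36 skin cells with the proliferation gene Mki67, 2 had Sdc4 (5.56%, 0.680 to 18.7), against 19.4% of the others (17.0 to 21.9).

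Phlda1 was lowest in clusters 1 and 4, at 189 CPM (162 to 218) and 164 (117 to 222), against 455 in cluster 0, 334 in cluster 2 and 395 in cluster 3. Nr4a1 was at 955 CPM in cluster 1, 1253 in cluster 4, 1682 in cluster 0, 1428 in cluster 2 and 1610 in cluster 3. Litaf varied less, from 339 CPM in cluster 4 (271 to 419) to 533 in cluster 0 (489 to 580). Sema6d lay between 70.2 and 96.3 CPM in clusters 0 to 3 and at 43.9 in cluster 4 (21.9 to 78.5), with overlapping intervals.

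**Figure D5:**
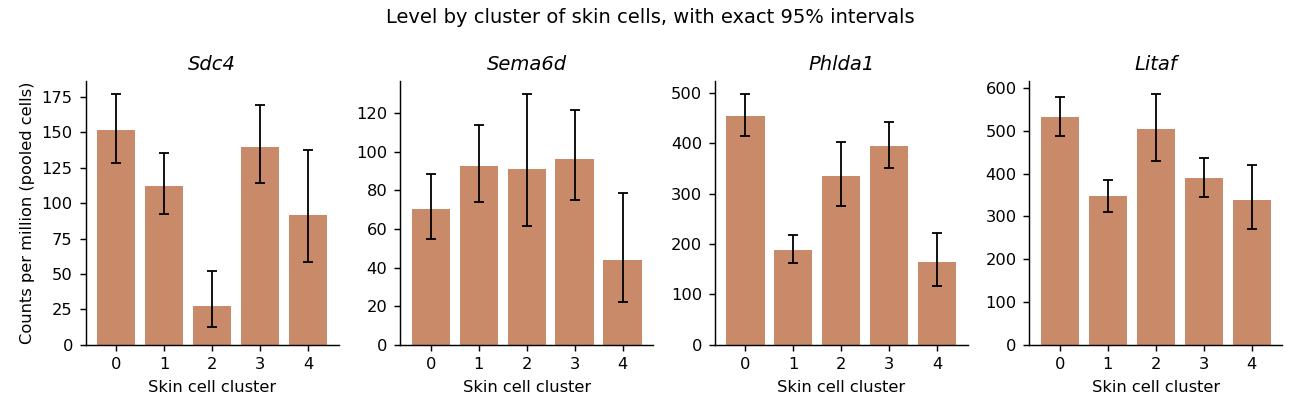
Bars give the pooled level of each gene in CPM in 5 clusters of skin cells, with exact 95% Poisson intervals. Sdc4 is at 27.3 in cluster 2 and at 91.7 or more elsewhere, and Phlda1 is at 189 and 164 in clusters 1 and 4 against 334 or more in the others.

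Genes of other cell types were counted in skin cells with and without each member, over all skin cells unthinned. Krt10, Sfn or Perp, genes of keratinocytes, were counted in 14.4% of the 277 skin cells with Sdc4 and 16.9% of the 947 without, and in 17.0% of the 224 cells with Sema6d and 16.2% of the 1000 without. For Phlda1 these were 16.8% and 16.0%, and for Litaf 16.8% and 15.6%. The summed level of these keratinocyte genes was 82.0 CPM in skin, against 35.2 (lung), 56.5 (liver) and 28.0 (lymph node), and none of the 3 was at 0 in any tissue. All 277 cells with Sdc4 and all 224 with Sema6d had counts of T cell genes. So had all 947 and 1000 cells without them, so this does not set cells with a member apart. Genes of endothelium, of which 2 were measured, were in 0.361% of cells with Sdc4 and 2.75% of those without. Of 10 myeloid genes, at least 1 was counted in 31.4% of cells with Litaf and 24.7% of those without, and in 30.9% of cells with Phlda1 and 27.1% of those without. Any of 5 B cell genes was counted in 3.24% of cells with Phlda1 and 1.29% of those without. Any of Scgb1a1, Epcam and Cdh1, epithelial genes of which Cdh1 is also on the residency list, was counted in 19.1% of cells with Sdc4 and 15.6% of those without, and in 20.5% of cells with Sema6d and 15.5% of those without. Trdc, a gamma delta T cell gene, was counted in 11.2% of cells with Sema6d and 7.80% of those without. Median counts per cell were 2619 with Litaf and 2397.5 without, and 2618.5 with Phlda1 and 2467 without. Over the tissues the myeloid genes summed to 220 CPM in skin (3 of the 10 at 0), 175 in lung (2 at 0), 190 in liver (4 at 0) and 305 in lymph node (2 at 0). The B cell genes summed to 10.02 CPM in skin (2 of 5 at 0) and up to 39.7 in lymph node (0 at 0). The part of these cells' RNA in the members' levels was not tested.

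Of 12 measured syndecan and heparan sulfate genes, 1 was at least 2-fold higher in skin than in lymph node and 1 at least 2-fold lower, beside 5.59% of all genes higher and 10.3% lower, with a median log2 ratio of 0.01 beside -0.20 over all genes. The higher gene was Ext1, a polymerase of heparan sulfate chains (3.98-fold, 1.81 to 9.65), and the lower was Xylt2, which starts the chains (0.413, 0.241 to 0.681). Sdc3, the other syndecan measured, had 4 counts in skin and 9 in lymph node. Sdcbp, which encodes syntenin, a partner of the syndecan tail, differed by 1.16-fold (1.02 to 1.31).

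Among 10 measured semaphorin, plexin and related genes, 0 were at least 2-fold higher in skin than in lymph node and 1 was lower, with a median log2 ratio of -0.28. The lower gene was Tyrobp, a signaling adaptor of myeloid and NK cells, with 2 counts in skin and 22 in lymph node. Sema4a, a semaphorin of T cell priming, was lower in skin, at 194 CPM against 264 in lymph node (0.735, 0.667 to 0.810), and Sema4d, which encodes CD100, was at 63.5 CPM against 66.4 (0.956, 0.797 to 1.14). Plexin-A1, the receptor of Sema6d, was not analysed here. Of 18 measured Litaf partners and endosomal genes, 3 were at least 2-fold higher, with a median log2 ratio of 0.09. They were Vps37b, a subunit of the sorting complex that holds Tsg101 (13.8-fold, 12.3 to 15.6), Ndfip1, an activator of Nedd4 ligases (2.17-fold, 1.96 to 2.41), and Tnf (8.33-fold, 6.81 to 10.3), the cytokine gene that gave Litaf its name. Nedd4 itself was lower in skin, at 29.8 CPM against 38.8 (0.767, 0.593 to 0.987), and Tsg101 differed by 1.11-fold (0.921 to 1.34). Both depended on scaling: with size factors the interval of Nedd4 held equality (0.850, 0.657 to 1.09) and that of Tsg101 did not (1.23, 1.02 to 1.49). Sema4d was then at 1.06 (0.884 to 1.27).

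Of 19 measured stress and apoptosis genes around Phlda1, 10 were at least 2-fold higher in skin than in lymph node and 0 lower, beside 5.59% and 10.3% of all genes, with a median log2 ratio of 1.07. Phlda3, its family member and a target of p53, stood at 6.68 CPM against 7.72 (0.865, 0.484 to 1.52), and Fas at 33.7 CPM against 23.6 (1.43, 1.09 to 1.88). Of 28 immediate early and receptor-induced genes, 24 were at least 2-fold higher and 1 lower (median 2.84), the lower being Jun, at 43.7 CPM against 115 (0.381, 0.314 to 0.458), and of 12 TGF-beta response genes 6 were higher and 0 lower (1.31). Heat shock genes were higher for 3 of 11 (0.74). Of 19 residency genes, which include Litaf, 9 were higher (0.81), and the same shares of all genes stand beside each of these lists. Against lung, where 15.7% of all genes were at least 2-fold higher in skin, the counts were 24 of 28 immediate early, 10 of 20 stress, 10 of 12 TGF-beta response and 4 of 11 heat shock genes, and against liver, where 16.4% of all genes were, they were 24 of 28, 8 of 19, 8 of 12 and 0 of 11. Per the labels' protocols, enzymes were used on skin and liver (collagenase, DNase) and on lung (Liberase, DNase), while lymph nodes were taken apart mechanically. Digestion and tissue cannot be told apart here.

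Genes with the most similar pattern over the 4 tissues were found by the distance between centred profiles of log2(CPM + 10), among 2996 genes with at least 50 CPM in a tissue. Nearest to Litaf was Zfp36l1, an RNA-binding regulator of mRNA decay, at a distance of 0.0510, with 299 CPM in skin, against 39.3 (lung), 56.5 (liver) and 70.6 (lymph node), followed by Sik1 (0.168) and Tnfsf11 (0.222). Nearest to Sema6d were Skil, a repressor of TGF-beta signaling (0.187), Furin, a protease gene (0.210), and Tnfsf11, which encodes RANKL (0.354). Nearest to Sdc4 were Bcl2a1b, Furin and Sema6d, at 0.347, 0.496 and 0.497. Phlda1 was nearest to Atf3, Tnfaip3 and Ifng, at 0.512, 0.532 and 0.564, which were also lowest in lymph node. Bcl2a1b has near-identical copies, which leaves its value uncertain.

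Across skin cells, the genes most correlated with each member differed. For Phlda1 they were Nfkbia, the inhibitor of NF-kB (r = 0.254), Ier2 (0.167) and Prr7 (0.166). For Litaf they were the survival genes Bcl2a1d (0.133) and Bcl2a1b (0.128), which are near-identical copies, and Skil (0.125). For Sdc4 they were Actb (0.180), Kdm6b, a histone demethylase gene (0.148), and Srsf2 (0.112), and for Sema6d Gpx1 (0.106), Ccnd2 (0.0944) and Hnrnph1 (0.0911). The 95th percentile of r over 2168 genes lay between 0.0526 and 0.0621 for the 4 members. The genes named are the top of that ranking, and all of these correlations are weak.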

How the data were processed

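The submitters' processing notes name Bowtie, RSEM and mm10, without versions. What the authors deposited is a single gene-by-cell matrix of raw counts, all whole numbers. The sources used here do not say how cells and genes were chosen or whether the counts are of molecular identifiers. No cell was removed, the lowest holding 753 counts. Scrublet (scanpy 1.11.5, expected rate 0.05, run per tissue) called 96 doublets (1.68%), which were kept and left out in an alternative.

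For each tissue, a gene's counts over all cells were added up and scaled to CPM by the tissue's summed counts. Ratios of tissues carry the exact conditional Poisson interval and shares the Clopper-Pearson interval (scipy 1.17.1), at 95%, and a count of 0 is read as up to 3 counts. With 1 library a tissue there is no test and no p-value. The interval code was tested on simulated data. Cells were thinned once, with a fixed seed, to 1886 counts, which is percentile 10 of all cells' depths. Skin cells were clustered on log-normalized values of 2000 variable genes, less the members and receptor segments, with 30 principal components, 15 neighbors and Leiden resolution 0.6. The genes named are the members, list genes and the 3 nearest genes of each member by 2 measures, and genes leading clusters and pairs singled out among the 100 were chosen after their values were seen. The members and lists were chosen with earlier results of these data known. Positions are from GENCODE M21 and promoter stretches from RefSeq. The alternatives were scaling, doublets, the cell with the highest count, cycling cells (Mki67 or Top2a), a mean over cells, thinning depth and the count that marks detection. Leaving out cells whose barcode is shared between tissues, and size factors for single list genes, were added after seeing the data.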

Additional observations from a re-analysis of the deposited data

How the results depend on the processing

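No paired analysis was possible because the cell names carry no sample number, so the numbers in the titles match no cells. All 60 alternative values of the skin ratios stayed within the interval of the main value, the lowest being 4.004. Those intervals are wide where counts are few. Sdc4 for skin over liver was 227 without doublets and 228 without the cell with the highest count, against 116, and Sema6d for skin over lung was 40.9 as a mean over cells, against 66.7. Size factors from median ratios moved the median log2 ratio of all genes by 0.15 for skin over lymph node, -0.12 for skin over lung and -0.14 for skin over liver. They moved Litaf to 0.694 for lung over lymph node and 0.969 for liver over lymph node; the other 58 values of ratios without skin stayed within their intervals. Among those, Sdc4 for liver over lymph node was 0.0467 without doublets and 0.0480 without the highest cell, and for lung over liver 2.95 to 3.23 under these and the mean over cells. With the mean over cells, lung over lymph node was 0.164 for Sema6d, and its lung over liver ratio was 1.11, on the other side of 1 from 0.597. Shares of skin cells depend on depth and on the count required. For Sdc4 the share was 10.7% at 1000 counts, 22.6% without thinning and 3.88% with at least 2 counts. For Sema6d these were 8.22%, 18.3% and 1.85%, for Phlda1 23.4%, 42.8% and 14.8%, and for Litaf 34.1%, 60.3% and 21.3%. Leaving out doublets left all 4 within their intervals. With at least 2 counts of each gene, observed over expected co-detection was 2.58 for Sdc4 with Sema6d (2 cells), 1.61 for Sdc4 with Phlda1 (10 cells), 0.338 for Sema6d with Phlda1 (1 cell) and 1.20 for Phlda1 with Litaf (41 cells), and all these intervals held 1. All 12 alternative values of the relation to Nr4a1 stayed within their intervals. With no filter on low counts, 2 syndecan and heparan sulfate genes in place of 1 were at least 2-fold higher in skin than in lymph node, and 5 in place of 3 than in liver. The cause was not tested. Few counts limit Sdc4 and Sema6d outside skin, where 2 to 58 counts stand behind each level.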

Other observations

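In liver, the few cells with the rarest members also held Cd69, the retention marker. At equal depth Cd69 was counted in 73 of 529 liver cells, among them the 2 cells with Sdc4 and the 3 with Sema6d, while the 456 liver cells without Cd69 held neither gene. Phlda1 and Litaf did not share this, with Phlda1 in 6.85% of liver cells with Cd69 (2.26 to 15.3) and 12.7% of those without (9.80 to 16.1), and Litaf in 12.3% of both. These pairs were chosen after their values were seen, and the numbers are too small to compare. The pattern was not seen in lymph node, with Sdc4 in 1.52% of cells with Cd69 and 1.93% of those without, and Sema6d in 1.01% and 2.62%. In skin these shares were 20.1% and 17.4% for Sdc4 and 13.5% and 15.2% for Sema6d. In both tissues the intervals overlap. A called doublet is among the liver cells with Sdc4, whose share was 0.378% of liver cells and 0.196% with doublets left out. In lymph node Sdc4 was found in 2.31% of cells with Itgae (1.35 to 3.67) and 1.45% of those without (0.727 to 2.59), and Sema6d in 2.85% (1.77 to 4.32) and 1.98% (1.11 to 3.25). Litaf was found in 18.0% of lymph node cells with Cxcr6, which encodes a receptor for CXCL16 (16.0 to 20.2), and 11.3% of those without (6.70 to 17.4), again with overlapping intervals.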
